A study of Oryza sativa Japonica Group with 6 samples.

Results

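Abundant transcripts with nearly the same level in every library were collected from the shoots of rice seedlings (Oryza sativa Japonica, cultivar Nipponbare) during dehydration and rehydration. They were selected on their RPKM values, with a mean over the 6 libraries of at least 50 and a highest library of at most 1.3 times the lowest, so their stability here is a description and not a finding. In all, 60 transcript models of 59 loci met both limits, out of 66153 models of 55801 loci in the table. The 2079 transcripts with a mean RPKM of at least 50 are called abundant here, and the 60 stable ones were 2.89% of them. RPKM is a read count divided by the length of the transcript and by the number of mapped reads, and so a share of each library corrected for length. A stable RPKM is therefore a stable share of the sequenced mRNA, and the amount of RNA per cell was not measured.

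The study followed wild-type seedlings grown on Murashige and Skoog medium under continuous light, with 2 libraries in each of 3 conditions. Control seedlings were sampled without treatment at 10 days of age. The dehydration was 8 h of air-drying at that age. Rehydration was the same drying with 24 h of re-watering after it, sampled at 11 days of age. Shoots of 20 plants were pooled for every library, and age and rehydration cannot be told apart because the rehydrated seedlings were 1 day older. In such whole shoots, fewer cells of a type and less RNA per cell cannot be told apart either.

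Transcripts of constant level are used as reference genes, against which the level of other genes is expressed in quantitative RT-PCR. Actin, tubulin, ubiquitin and elongation factor genes are the customary choices in plants, because every living cell needs their products for its cytoskeleton, protein turnover and translation. A gene that serves one treatment or tissue can change in another, so that reference genes are usually checked in the material at hand.

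Whole counts could be recovered from the RPKM values, because the smallest values of a library are multiples of 1 counted unit. The libraries held between 5302542 counted units in rehydration 2 and 6150631 in control 1. Summed RPKM differed little between libraries, from 539105 in dehydration 2 to 573137 in rehydration 1. The shoot label was checked on marker genes. The chlorophyll A-B binding protein transcript LOC_Os11g13890_1 was at 1556 and 1252 RPKM in the control libraries, 34.6 and 74.0 on dehydration and 1367 and 1063 on rehydration. The root marker OsNRT2.3 (LOC_Os01g50820), a nitrate transporter, was at most 4.10 RPKM in any library. OsNAR2.2 (LOC_Os04g40410), the other root marker and a partner of nitrate transporters, ranged from 0 in dehydration 1 to 12.0 in rehydration 2.

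With RPKM as listed, stability was uncommon among abundant transcripts. Among the other 2019 abundant transcripts, 11 were listed at 0 in at least 1 library, and the other 2008 had a median ratio of highest to lowest library of 3.47. Of 1292 transcripts with a mean RPKM between 50 and 100, 41 were stable (3.17%). Between 100 and 200 RPKM it was 15 of 501 (2.99%), and between 200 and 500 RPKM it was 4 of 201 (1.99%). None of the 85 transcripts at 500 RPKM or more met the limit, where 2.89% of all abundant transcripts did, so that 0 of 85 says little. The nearest of these was LOC_Os02g02890_1, at 1108 and 1374 RPKM in control, 1120 and 1048 on dehydration and 1346 and 1289 on rehydration, a ratio of 1.31. After median-ratio scaling (described below) LOC_Os11g47760_1, with a scaled mean of 505, met the ratio limit at 1.23, against 1.46 as listed. Below the mean limit and as listed, the share was a little higher, with 4.11% of 3702 transcripts between 20 and 50 RPKM inside the ratio limit.

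**Figure D1:**
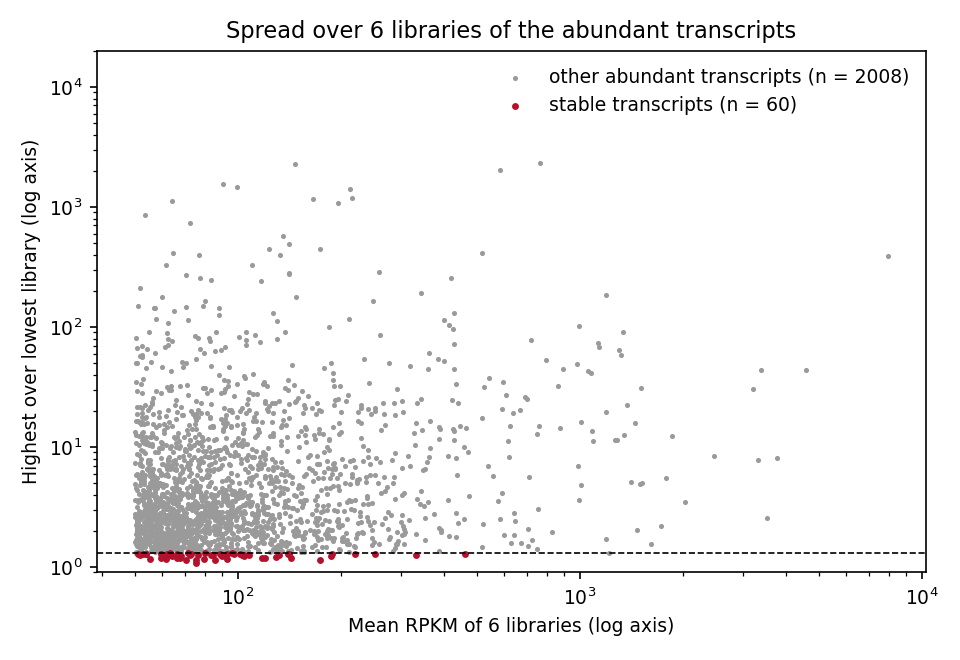
Each point is 1 abundant transcript, with its mean RPKM over 6 libraries on a log axis against the ratio of its highest to its lowest library on a log axis, and the dashed line is the limit of 1.3. The 60 stable transcripts (red) lie below the line between 50.9 and 461 RPKM, and the 2008 other abundant transcripts with no library at 0 (grey) lie above it.

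The limits were sharp on a continuous range of values. Just inside the ratio limit were LOC_Os08g42000_1 with a ratio of 1.2998, LOC_Os12g18110_1 with 1.2978 and LOC_Os04g32850_1 with 1.2958. Just outside it were LOC_Os02g48964_1 with 1.3048, LOC_Os01g69110_1 with 1.3073 and LOC_Os02g02890_1. The lowest means inside were 50.9 RPKM for LOC_Os02g52340_1, 51.6 for LOC_Os08g28680_1 and 52.8 for LOC_Os04g32650_1. LOC_Os02g35590_2 at 49.5 RPKM, LOC_Os04g32270_1 at 49.2 RPKM and LOC_Os07g33110_1 at 49.2 RPKM met the ratio limit and missed the mean limit.

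Of the stable transcripts, LOC_Os07g40580_1 had the highest mean, with 476 and 534 RPKM in control, 464 and 420 on dehydration and 451 and 420 on rehydration. Both controls lay above the 4 treated libraries. LOC_Os06g46770_1 followed with 304 and 306 RPKM in control, 380 and 353 on dehydration and 345 and 300 on rehydration. Its dehydration libraries were above the other 4. LOC_Os05g41210_1 was at 225 and 236 RPKM in control, 289 and 240 on dehydration and 281 and 242 on rehydration, and its 2 replicates differed more on dehydration than any 2 condition means did.

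LOC_Os04g37690_1 had 195 and 191 RPKM in control, 220 and 240 on dehydration and 243 and 230 on rehydration, with both controls below the treated libraries. LOC_Os02g52290_1 had 203 and 202 RPKM in control, 204 and 164 on dehydration and 175 and 172 on rehydration, with the replicates of dehydration at the highest and the lowest value of all 6. The others of the 10 most abundant were LOC_Os07g42370_1 and LOC_Os06g01700_1, described below with their groups, LOC_Os11g21990_1 (143 RPKM on average), LOC_Os01g18800_1 (141 RPKM) and LOC_Os01g52500_4 (141 RPKM). In LOC_Os01g18800_1 control 1 alone was high, at 168 RPKM against 132 to 140 RPKM in the other libraries. The median of the 60 means was 79.8 RPKM, and by mean level the stable transcripts ranked from 90 to 2030 in the whole table.

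With RPKM as listed, LOC_Os09g33680_1 was the steadiest of the stable transcripts. It had 76.6 and 75.9 RPKM in control, 75.1 and 72.8 on dehydration and 74.1 and 79.3 on rehydration, a ratio of 1.09. Its recovered counts were 1019, 928, 903, 963, 924 and 909 in the same order, with the highest count in the deepest library. LOC_Os06g12690_1 was the next steadiest as listed, with a ratio of 1.13. It had 79.8 and 89.8 RPKM in control, 88.7 and 82.7 on dehydration and 90.6 and 82.3 on rehydration. The 3 conditions of this transcript overlapped fully.

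LOC_Os02g10720_1 was at 77.1 and 76.9 RPKM in control, 68.3 and 76.4 on dehydration and 77.1 and 77.9 on rehydration. Dehydration 1 was the lowest, and the other 5 libraries lay within 76.4 to 77.9 RPKM. LOC_Os06g01700_1, at 160 and 166 RPKM in control, 172 and 183 on dehydration and 179 and 184 on rehydration, combined a high level with a ratio of 1.15. LOC_Os08g02080_1 also had a ratio of 1.15, with 66.7 and 65.1 RPKM in control, 70.3 and 73.5 on dehydration and 74.9 and 73.7 on rehydration. In both, all 4 treated libraries lay above the controls. The others of the 10 steadiest as listed were LOC_Os10g34520_1, LOC_Os03g10510_1, LOC_Os09g07510_1, LOC_Os01g38950_1 and LOC_Os02g21280_1, with ratios of 1.17 to 1.18. Over all 60 the median ratio was 1.26.

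**Figure D2:**
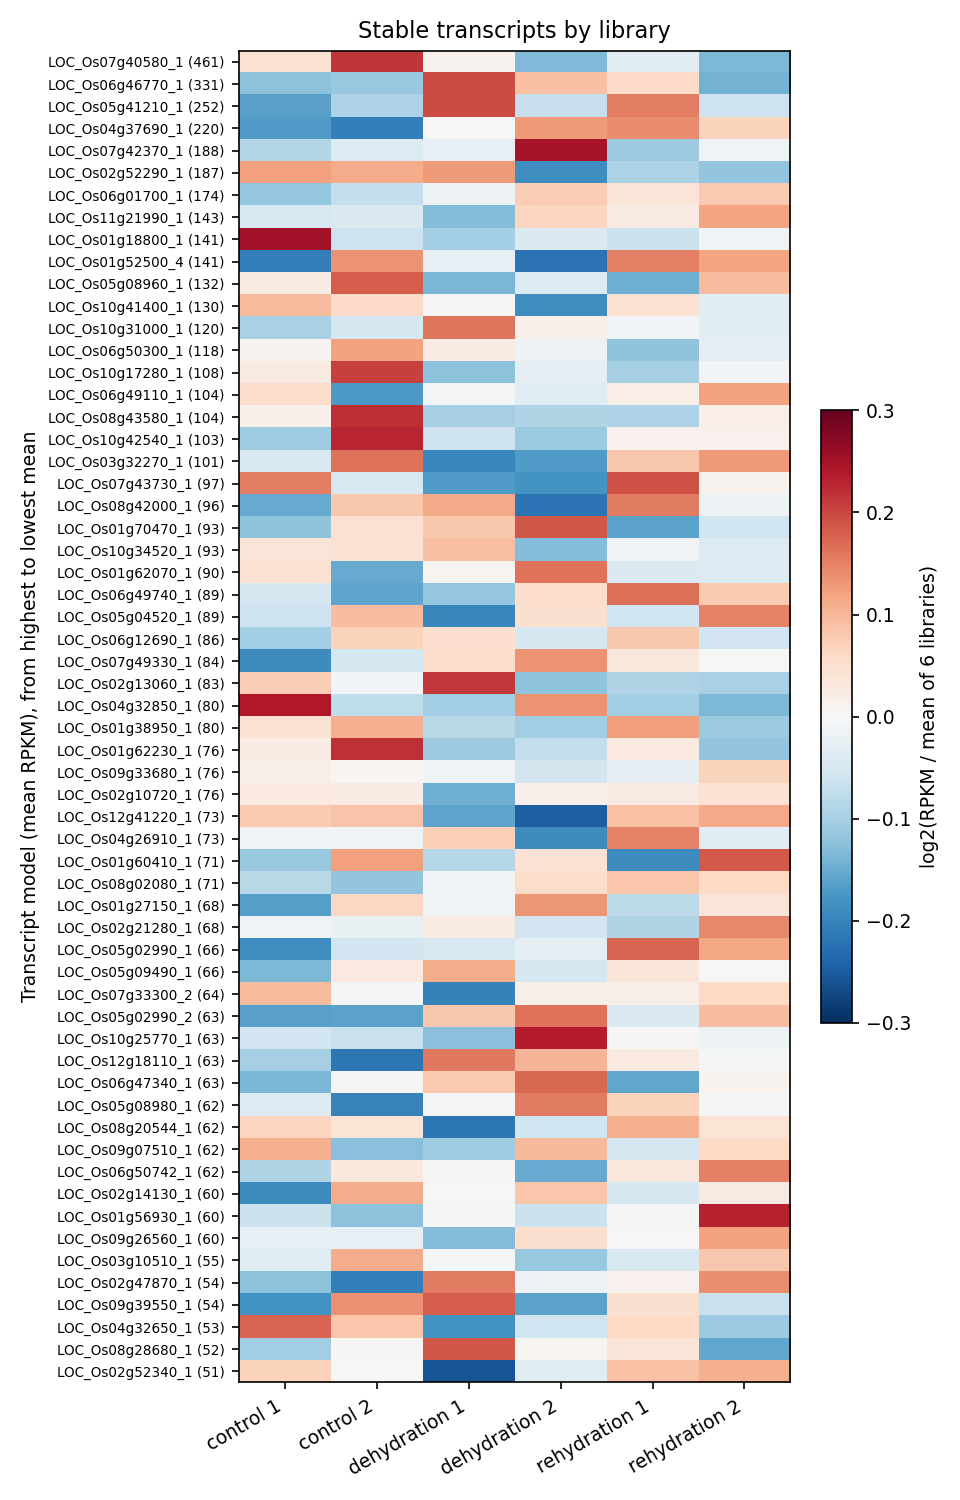
Each row is 1 of the 60 stable transcripts, ordered by mean RPKM (in parentheses), each column is 1 library, and the colour is log2 of the RPKM over the transcript's own mean. No column is of 1 colour: the highest value fell in control for 16 transcripts, on dehydration for 20 and on rehydration for 24.

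How much of the remaining spread came with counting itself was read from the recovered counts, which ranged from 198 to 4485 per transcript and library with a median of 708. The coefficient of variation (CV, the SD as a percentage of the mean) over the 6 libraries was 2.94% to 11.6%, with a median of 8.68%. Counting alone would give a median CV of 3.70% at these counts. The variance of the counts around the values expected from depth, divided by the variance of counting, was 4.65 in the median stable transcript. A value of 1 is counting error with nothing added. LOC_Os09g33680_1 was the only transcript below 1, at 0.796. It was followed by LOC_Os02g21280_1 at 1.00, with 67.2 and 66.8 RPKM in control, 69.0 and 65.2 on dehydration and 63.7 and 74.9 on rehydration, and by LOC_Os02g10720_1 at 1.07.

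In 7 of the 60 stable transcripts this quotient was at most 2, against 0 of 2005 other abundant transcripts with recovered counts, whose median was 157 and whose median CV was 45.2%. The rule selects for low spread, so these counts describe the selection. The quotient was largest where counts were largest, at 37.9 in LOC_Os06g46770_1 with 3310 to 4485 counts per library and 25.3 in LOC_Os07g40580_1 with 2510 to 3406. Differences between the libraries of these 2 transcripts were thus well above counting error although their ratios were 1.26 and 1.27.

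**Figure D3:**
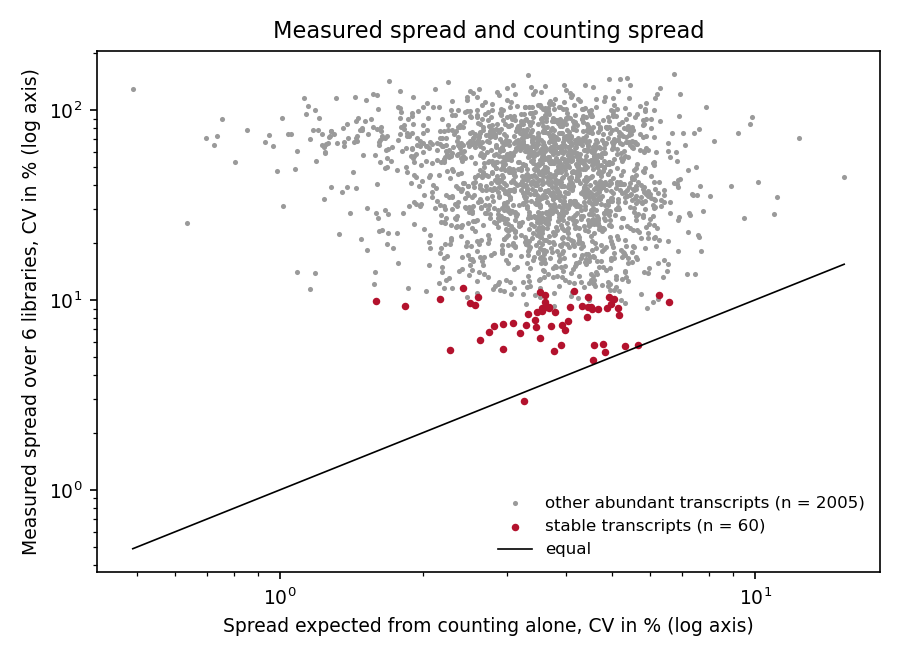
For each abundant transcript with recovered counts, the CV over the 6 libraries is plotted against the CV that counting alone gives, both in % on log axes, and the line marks equality. The stable transcripts (red, n = 60) lie between 2.94% and 11.6%, 1 of them clearly below the line, and the other abundant transcripts (grey, n = 2005) lie above.

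The rule limits differences between replicates and between conditions alike, so the values that follow describe the selection. The higher replicate was a median of 1.08 times the lower in control, 1.10 times on dehydration and 1.07 times on rehydration. The highest condition mean was a median of 1.13 times the lowest, and at most 1.23 times. In 34 of the 60 stable transcripts the 3 condition means spanned less than the widest pair of replicates. Summed over the 60 transcripts, the libraries held 6040 and 6247 RPKM in control, 6182 and 6110 on dehydration and 6226 and 6180 on rehydration. The highest sum was 1.03 times the lowest, and 1.12 times for the other abundant transcripts, which failed the ratio limit. The rule favours a steady sum, so this difference is no separate result. Of the summed RPKM of a library the 60 transcripts took 1.06% to 1.13%.

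Dehydration against control asked which transcripts change when water is lost. By the rule, none of the 60 stable transcripts could be called at a fold over 2, and none was, where 22.3% of the 26790 tested transcripts were called with limma (adjusted p under 0.01). Of the other abundant transcripts 53.4% were called, 584 higher and 494 lower. The median log2 fold change of the stable transcripts was −0.01, with a range of −0.28 to 0.28, while that of all tested transcripts was −0.30 and that of the other abundant ones 0.26. All these are differences of log2(RPKM + 1). Leaving out 1 library lowered the 5987 calls over all transcripts to 1097 without control 1, 1533 without control 2, 2674 without dehydration 1, and 3719 and 3791 without rehydration 1 and 2.

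Within their narrow range the stable transcripts still had an order. Both dehydration libraries lay above or below both controls in 31 of them, where 73.8% of the tested transcripts did so. They were above in 16 and below in 15, where the shares of the tested transcripts were 28.0% and 45.8%. The 5 with the largest separated increase were LOC_Os12g18110_1 and LOC_Os05g02990_2 with a log2 difference of 0.28, LOC_Os06g46770_1 with 0.26, LOC_Os04g37690_1 with 0.25 and LOC_Os02g47870_1 with 0.23. LOC_Os12g18110_1 was at 59.1 and 54.5 RPKM in control, 70.7 and 67.9 on dehydration and 64.6 and 63.2 on rehydration, so that rehydrated shoots lay between the others. LOC_Os02g47870_1, with 49.6 and 46.9 RPKM in control, 60.2 and 53.4 on dehydration and 54.5 and 59.6 on rehydration, rested on the fewest counts of the 60, at 198 to 250 per library.

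The 5 with the largest separated decrease were LOC_Os12g41220_1 with a log2 difference of −0.28, LOC_Os04g32650_1 and LOC_Os03g32270_1 with −0.24, LOC_Os07g43730_1 with −0.22 and LOC_Os08g43580_1 with −0.21. These are values with RPKM as listed. After median-ratio scaling (described below), none of these 5 had both dehydration libraries below both controls. LOC_Os12g41220_1 was at 77.1 and 77.6 RPKM in control, 65.5 and 61.5 on dehydration and 77.6 and 79.0 on rehydration. The dehydration libraries were apart from 4 libraries between 77.1 and 79.0 RPKM. LOC_Os03g32270_1, at 98.2 and 114 RPKM in control, 88.7 and 90.2 on dehydration and 107 and 111 on rehydration, and LOC_Os07g43730_1, at 108 and 94.2, 86.6 and 86.1, and 111 and 98.2, also had both dehydration libraries below the other 4, with replicates of control and rehydration farther apart. With 2 libraries against 2, an exact permutation test of 1 transcript cannot give a two-sided p below 0.333.

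Rehydration against control asked what differs 1 day after re-watering. Of all tested transcripts 0.847% were called and of the other abundant ones 5.10%. Over all transcripts limma made 0 calls in place of 227 without control 1, control 2, rehydration 1 or rehydration 2, with 3897 to 4026 transcripts at an unadjusted p under 0.05. The stable transcripts had a median log2 difference of 0.03, between −0.22 and 0.29. In 19 of them both rehydration libraries were above both controls and in 9 below, where 26.9% and 26.0% of all tested transcripts were. Rehydration against dehydration, with 5.33% of the tested transcripts called, gave a median of 0.04 in the stable transcripts and 0.24 in all tested. Its 1427 calls by limma went to 0 when any single library other than dehydration 2 was left out, with 7269 to 9598 transcripts at an unadjusted p under 0.05. Both rehydration libraries were above both dehydration libraries in 14 stable transcripts and below in 9, where 43.0% and 22.7% of all tested transcripts were. The 3 comparisons share libraries and are not independent.

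Over the 3 conditions, and with RPKM as listed, the 60 transcripts fell into a few orders of libraries. In 14 of them no 2 conditions were apart, where 14.0% of all tested transcripts had this. They include LOC_Os06g12690_1, LOC_Os02g21280_1, LOC_Os09g07510_1 and LOC_Os03g10510_1. All 4 treated libraries lay above both controls in 11 stable transcripts and below in 4, where 18.3% and 22.0% of tested transcripts did so. The 4 that were lower are LOC_Os07g40580_1, LOC_Os10g41400_1, LOC_Os10g17280_1 and LOC_Os04g32650_1.

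Dehydration stood apart on the high side in 6 stable transcripts and on the low side in 6, where 19.1% and 36.3% of tested transcripts had these orders. Those on the low side were LOC_Os12g41220_1, LOC_Os03g32270_1, LOC_Os07g43730_1, LOC_Os08g20544_1, LOC_Os02g52340_1 and LOC_Os02g10720_1, the last with dehydration 2 at 76.4 RPKM just below control 2 at 76.9. After median-ratio scaling (described below) LOC_Os02g10720_1 instead had dehydration above control and rehydration, at 84.4 and 82.6 in scaled RPKM. Control was then at 72.2 and 66.6 and rehydration at 70.2 and 69.4. The others on the low side as listed also lost that order on that scale. Rehydration stood apart on the high side in 7 and on the low side in 2, where 7.88% and 2.92% of tested transcripts did. LOC_Os01g56930_1 is one of the former, at 57.2 and 54.9 RPKM in control, 59.6 and 57.2 on dehydration and 59.6 and 70.2 on rehydration. There the order rested on rehydration 2, since rehydration 1 exceeded dehydration 1 by less than 0.1 RPKM. LOC_Os06g50300_1, at 119 and 128 RPKM in control, 120 and 117 on dehydration and 108 and 116 on rehydration, is one of the latter.

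Only 4 of the 59 loci carried an annotation in the study's tables, which describe 3461 loci, most of them listed because they responded to the treatments or to a hormone. LOC_Os07g42370_1 encodes a ZIM domain containing protein. The domain occurs in the JAZ family, repressors that bind transcription factors of the jasmonate pathway and are degraded when the hormone is perceived. JAZ genes are themselves induced by jasmonate. The annotation of this locus names the domain only. LOC_Os07g42370_1 was at 177 and 183 RPKM in control, 185 and 223 on dehydration and 174 and 186 on rehydration. Only dehydration 2 stood out, and the mean on dehydration (204 ± 27.0 RPKM, SD, n = 2) differed from that of the control (180 ± 4.16) by less than the spread on dehydration.

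Several JAZ and other ZIM domain genes were many-fold higher on dehydration. The list holds 12 loci named as JAZ or ZIM genes or annotated with the ZIM domain in the study's tables. Of these, 8 carry a name because the study chose them on these samples. The others were found through tables that mainly list loci for a response to the treatments or to a hormone. The direction of the 12 is therefore not independent evidence, and their calls are not a like comparison with all tested transcripts. On dehydration 7 of the 12 were called higher and 0 lower, where 8.97% and 13.4% of all tested transcripts were. JAZ1 (LOC_Os03g08320_1) rose from 5.76 and 14.1 RPKM in control to 275 and 268 on dehydration, and was at 116 and 188 on rehydration, a log2 fold change of 4.75 ± 0.42 (SE) on dehydration (limma, adjusted p = 0.000872). JAZ2 (LOC_Os10g25290_1) rose from 12.5 and 18.5 RPKM to 249 and 245, a log2 fold change of 3.94 ± 0.25 (limma, adjusted p = 0.000454), and was at 88.8 and 122 on rehydration. The treated libraries of both lay far above the controls.

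LOC_Os03g28940_1, which has no gene name in the tables, was at 53.3 and 62.4 RPKM in control, 331 and 418 on dehydration and 157 and 281 on rehydration, with a log2 fold change of 2.67 ± 0.31 on dehydration (limma, adjusted p = 0.00188). JAZ5, JAZ7, JAZ9 and ZIM18 were the other genes called higher, with log2 fold changes of 2.70, 2.28, 3.55 and 3.95. JAZ6 lay at the threshold with 3.53 (limma, adjusted p = 0.01005, and 0.00132 to 0.0567 over the alternatives), and its libraries were at 0.468 and 1.53 RPKM in control and 13.3 and 33.4 on dehydration. On rehydration JAZ1 and JAZ2 were called higher than in control, 2 of the 12, where 0.776% of all tested transcripts were. Leaving out a library lowered the count of 7 to 3 without control 1, to 2 without control 2, and to 4 without dehydration 1.

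The count depended on the scale of the libraries as well. With median-ratio scaling 10 of the 12 were called higher, JAZ6, LOC_Os04g55920_2 and ZIM8 in addition. LOC_Os07g42370_1 had the highest control level of the 12, and its log2 fold change was 0.17 ± 0.19 (limma, adjusted p = 0.492), with 0.53 after median-ratio scaling and −0.05 after quantile normalization. Its ratio of highest to lowest library was 1.28 as listed and 1.27 after quantile normalization. It missed the limit of 1.3 with libraries brought to equal sums (1.36) and with median-ratio scaling (1.52). LOC_Os04g55920_2 was next in control, with 88.6 and 89.2 RPKM, and reached 143 and 156 on dehydration, a log2 fold change of 0.74 that was not called as listed (limma, adjusted p = 0.0232) and was called at 1.10 with median-ratio scaling (limma, adjusted p = 0.00586). ZIM8 (LOC_Os09g23660_1) at 43.0 and 48.5 RPKM in control and 64.7 and 85.5 on dehydration was not called as listed either (0.69, limma, adjusted p = 0.0567) and was called at 1.05 with median-ratio scaling (limma, adjusted p = 0.0093). LOC_Os03g28940_1, which was called, lay between these 2 in control level. RPKM is per length, so these levels can be set side by side.

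**Figure D4:**
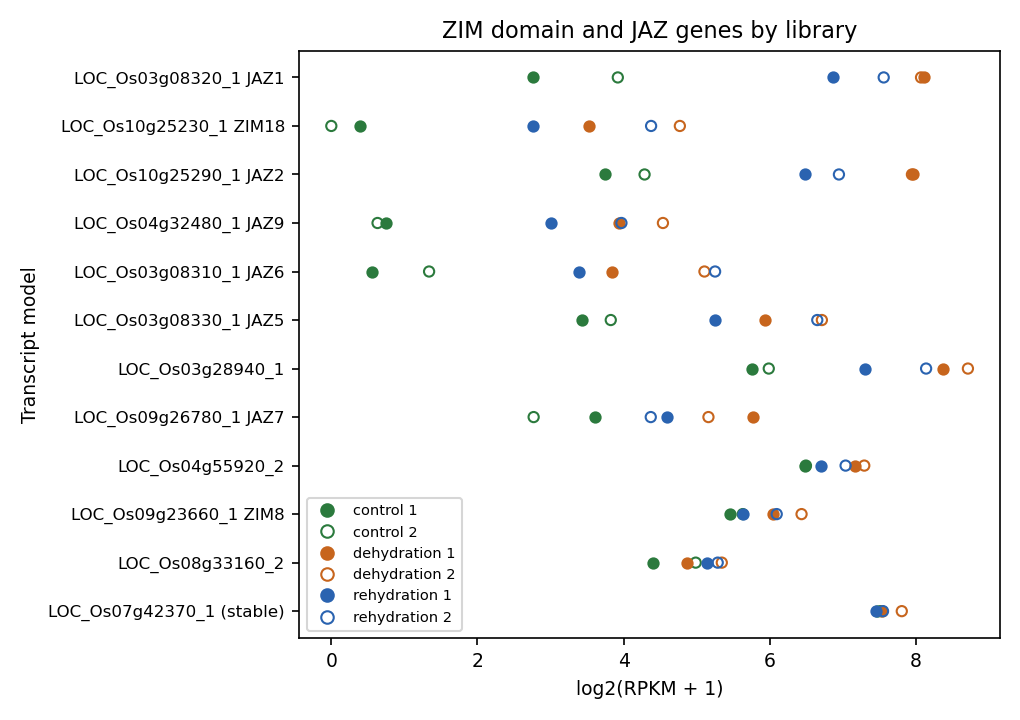
Each row is the main transcript model of 1 of the 12 JAZ and ZIM loci, ordered by log2 fold change on dehydration, and each point is 1 library on the scale log2(RPKM + 1), with control in green, dehydration in orange, rehydration in blue, replicate 1 filled and replicate 2 open. The stable LOC_Os07g42370_1 at the bottom has all 6 libraries within 174 to 223 RPKM, while JAZ1 at the top runs from 5.76 to 275 RPKM.

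The other 3 annotated loci have different roles. LOC_Os07g49330_1 is annotated as similar to phospholipase C, an enzyme that cleaves membrane phospholipids into signalling molecules. It was at 74.1 and 81.5 RPKM in control, 87.7 and 92.8 on dehydration and 86.5 and 84.4 on rehydration. Its treated libraries were all above the controls. LOC_Os01g62070_1 is annotated as similar to cation diffusion facilitator 8, of a family of metal ion transporters, and was at 92.7 and 80.9 RPKM in control, 90.4 and 101 on dehydration and 87.2 and 87.3 on rehydration, with dehydration and control overlapping.

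Both loci are in the study's list of genes induced by abscisic acid, the hormone of the drought response. The rows of that list carry 614 different loci of the table, of which 155 had an abundant transcript and these 2 a stable one, where 2.89% of all abundant transcripts were stable. The lists of loci repressed by abscisic acid (583 loci, 78 with an abundant transcript), induced by auxin (223 loci, 32) and repressed by auxin (100 loci, 6) held none, and at these sizes this says little. LOC_Os04g32850, annotated as a basic proline-rich protein, is the last annotated locus. Its annotation comes from the study's list of transcripts higher on dehydration, as that of LOC_Os07g42370 comes from the list of genes induced by jasmonate, which was used here only in part. Its stable model LOC_Os04g32850_1 was at 94.6 and 76.1 RPKM in control, 74.6 and 88.0 on dehydration and 74.6 and 73.0 on rehydration, with replicates of control 1.24-fold apart.

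Stable and changing models occurred in the same locus. Of the 60 stable transcripts 30 were the only model of their locus and 30 came from 29 loci with several models, where 45.7% of all abundant transcripts came from such loci. The 29 loci have 49 other models, of which 37 were tested, and 2 of these were called higher on dehydration (5.41%, against 22.3% of all tested transcripts) and 0 lower. LOC_Os06g46770_3 was listed at 0 in both controls, at 1.94 and 5.21 RPKM on dehydration and at 2.15 and 2.85 on rehydration (limma, adjusted p = 0.00968). LOC_Os04g32850_3 rose from 0.833 and 1.51 RPKM in control to 4.92 and 5.45 on dehydration, with 2.22 and 1.61 on rehydration, a log2 fold change of 1.53 ± 0.30 (limma, adjusted p = 0.00970). Both are minor models, with 0.491% and 3.12% of the RPKM of their loci, and 1 of these calls was left without dehydration 1 and 0 without any other single library.

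Reads shared by the models of a locus can be split in more than 1 way, and how the counting program did so is not given in the sources used here. The stable model held a median of 93.2% of the summed RPKM of its locus, from 47.9% to 100%, and was the most abundant model in 28 of 30 cases. With all models of a locus added up, 77 loci met the rule and 52 of the 59 loci were among them. LOC_Os01g52500_4 was lost in this way, with a locus ratio of 1.45. Its sister model LOC_Os01g52500_2 was at 30.2 and 62.5 RPKM in control, 31.4 and 44.7 on dehydration and 71.6 and 63.3 on rehydration. LOC_Os06g46770 reached 1.41, as LOC_Os06g46770_5 and LOC_Os06g46770_4 varied between 19.6 and 55.1 RPKM.

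LOC_Os05g02990 was the locus with 2 stable models. Model 1 was at 58.4 and 63.9 RPKM in control, 64.3 and 65.1 on dehydration and 75.0 and 72.0 on rehydration. Model 2 was at 56.7 and 56.7, 67.1 and 71.0, and 61.5 and 67.6 RPKM. Model 1 was highest on rehydration and model 2 on dehydration, and their sum had a ratio of 1.23. The 2 models have nearly the same length, 1105 and 1110 bases, so that the share of reads given to each may depend on the counting.

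In length the stable transcripts lay close to the abundant transcripts as a whole. Their lengths, recovered from the RPKM values, were 715 to 3215 bases with a median of 1396.5 bases, and the other abundant transcripts had a median of 1411 bases. By their identifiers they lay on all 12 chromosomes, from 1 transcript on chromosome 11 to 9 on chromosome 1. As a share of the abundant transcripts this was lowest on chromosome 3, with 2 of 299, and highest on chromosome 10, with 6 of 92. No test was made of these shares.

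Which transcripts counted as stable depended on the scale of the libraries. With each library brought to the same sum, 56 transcripts met the rule and 51 of the 60 were among them. With quantile normalization 61 met it, of which 32 were among the 60. Median-ratio scaling over the 24125 transcripts above 0 in every library divided the dehydration libraries by 0.757 and 0.865 relative to control 1. Then 39 transcripts met the rule, and 6 of them were among the 60. On that scale the median log2 difference of the 60 between dehydration and control was 0.35, after quantile normalization it was −0.20, and as listed it was −0.01. The direction of these transcripts as a group is thus set by the scale.

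LOC_Os02g10720_1 was the only one of the 60 that met the rule on all 4 scales, with ratios of 1.14 as listed, 1.17 with equal sums, 1.27 with median-ratio scaling and 1.2996 after quantile normalization. LOC_Os06g46770_1, the second most abundant, had a ratio of 1.12 after quantile normalization and 1.77 after median-ratio scaling. The choice of transcripts behind the median also mattered. With 3 other sets, chosen after seeing the data, of transcripts at 1 RPKM or more in every library, with a mean of at least 10 RPKM and with a mean of at least 50 RPKM, the rule was met by 53, 62 and 42 transcripts, of which 23, 37 and 20 were among the 60.

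**Figure D5:**
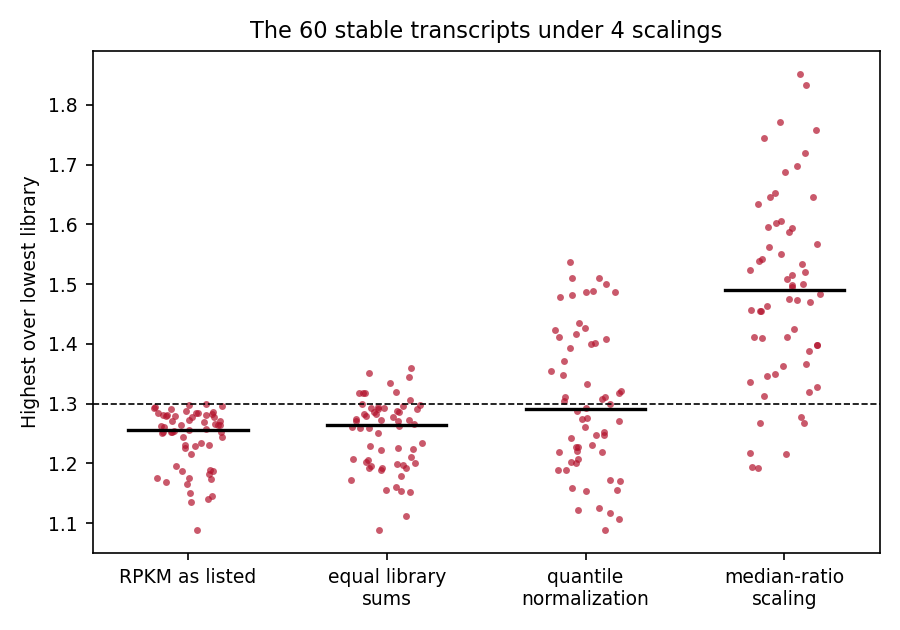
Each point is 1 of the 60 stable transcripts, with the ratio of its highest to its lowest library under each of 4 scalings, the bars are medians and the dashed line is the limit of 1.3. The medians are 1.26 as listed, 1.26 with equal library sums, 1.29 after quantile normalization and 1.49 after median-ratio scaling.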

How the data were processed

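In the authors' processing, paired-end reads of stranded mRNA libraries were trimmed and mapped to the rice genome (MSU annotation 7.0) allowing 1 mismatch, and RPKM was computed in CLC Genomics Workbench 20.0.4. The deposited RPKM values of 6 libraries were used, 1 column per library. The members and gene lists were chosen with earlier results of these data known. The study's test needs counts, so log2(RPKM + 1) was fitted in limma 3.58.1 (R 4.3.3) with 3 groups and a trend on abundance, for the 26790 transcripts with at least 1 RPKM in at least 2 libraries. A call needed a Benjamini-Hochberg adjusted p under 0.01 and a fold over 2. Counts were recovered for 2065 abundant transcripts (whole within 0.01 units), and for 97.8% of 2155 low transcripts the implied length was whole. Counts served only to describe spread.

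Named transcripts are the annotated members, the 10 highest by mean, the 10 lowest by ratio, the 3 next to each limit on either side, the 5 with the largest separated difference on dehydration in each direction, called models of the same loci, and JAZ and ZIM genes. Others were named after their values were seen. Annotation words came from the study's tables. Other steps used Python 3.11.15, numpy 2.4.6, pandas 2.3.3 and matplotlib 3.10.9.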

Additional observations from a re-analysis of the deposited data

How the results depend on the processing

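The number of abundant stable transcripts, 60 as listed, was 15 at a ratio limit of 1.2 and 188 at 1.5, 212 at a minimum mean of 20 and 19 at 100, and 39 with median-ratio scaling. Leaving out 1 library gave 77 to 96, but this can only lower or keep each ratio, so these counts describe the rule. The separated members on dehydration were 31 as listed and 50 with median-ratio scaling. The 5987 calls on dehydration became 9719 at an adjusted p under 0.05 and 1097 to 4508 without 1 library. The 227 calls for rehydration against control became 53 with no filter on low values, 142 with a pseudocount of 0.1 and 1316 at 0.05, and 0 to 129 without 1 library. The 1427 calls for rehydration against dehydration became 10, 702 and 5008 at the same settings, and 0 to 1482 without 1 library. Of the 2 loci with another model called, 0 were left with no filter, 1 with a pseudocount of 0.1, 1 with a replicate block and 0 to 1 without 1 library, and there were 5 at 0.05. The 7 JAZ and ZIM calls were 2 to 7 without 1 library. With median-ratio scaling they were 10. The log2 fold change of LOC_Os07g42370_1 on dehydration, 0.17 and not called, was −0.05 after quantile normalization, and no called fold change changed sign.

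Replicates with the same number were not taken as pairs, since their differences correlated at 0.06, 0.13 and 0.20 between conditions. With a replicate block the calls were 6317, 284 and 1358 in the 3 comparisons and 8 among the JAZ and ZIM genes. With 2 libraries per condition, changes under the 2-fold limit were not resolved, and counting alone gives the member with the fewest counts a CV of 6.58%.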

Other observations

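Annotations were searched for words that name families of customary reference genes, chosen after seeing the data. The words were actin, ubiquitin, tubulin, elongation factor, glyceraldehyde-3-phosphate dehydrogenase, peptidyl-prolyl isomerase, ribosomal protein and histone. A match need not be a reference gene. The only abundant elongation factor match was annotated as a transcription elongation factor, and ubiquitin matches included conjugating enzymes and ubiquitin-fold proteins. The matches had 28 abundant transcripts, and 0 of these were stable by the rule, where 2.89% of all abundant transcripts were. At this size 0 says little. The annotation covers mainly genes that were listed because they responded, so that steady members of these families may be missing from the search. The nearest to the limit was LOC_Os03g63950_1, annotated as similar to a plastid-specific ribosomal protein, with a ratio of 1.35. It was at 201 and 157 RPKM in control, 156 and 154 on dehydration and 203 and 150 on rehydration, and control 1 and rehydration 1 stood above the rest. LOC_Os10g11260_1, annotated as similar to a ubiquitin-conjugating enzyme, had a ratio of 1.46, with 47.4 and 69.2 RPKM in control, 58.4 and 64.5 on dehydration and 52.0 and 62.5 on rehydration. The only abundant transcript annotated as actin, LOC_Os01g64630_1, was at 122 and 159 RPKM in control, 207 and 295 on dehydration and 165 and 222 on rehydration, a ratio of 2.41. Quantitative RT-PCR in the study was normalized to Actin1, and the annotation does not tell whether this transcript is that gene.

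After median-ratio scaling, 3 of the 39 transcripts that met the rule had an annotation. LOC_Os02g41650_1, a phenylalanine ammonia-lyase, the entry enzyme of the phenylpropanoid pathway, was then at 183 and 220 in control, 201 and 213 on dehydration and 199 and 212 on rehydration, in scaled RPKM, with a ratio of 1.199 against 1.56 as listed. LOC_Os05g35170_1, annotated as a no apical meristem protein, had a ratio of 1.16 against 1.61, and LOC_Os06g04020_1, annotated as a histone H5 family protein, 1.27 against 1.68. The steadiest on that scale was LOC_Os08g37320_1, with a ratio of 1.07 against 1.37 as listed.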
